A study of Mus musculus with 26 samples.

Results

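Transcripts of 8 genes that move, make or break down the inhibitory transmitter GABA were followed through immunoprecipitated RNA of the mouse retina and optic nerve. The genes were taken by symbol from the 54532 genes of the deposited table. They are the transporter genes Slc6a11, Slc6a12 and Slc6a13, the synthesis genes Gad1 and Gad2, the breakdown genes Abat and Aldh5a1, and Maob of the putrescine route. The study compared immunoprecipitated (IP) retinal RNA, which the labels ascribe to astrocytes, with retinal input RNA, and with IP RNA from 2 stretches of the optic nerve. The libraries number 6 for retina IP, 7 for IP of the ONH (optic nerve head, the exit of the axons from the eye), 7 for IP of the ONP (myelinated optic nerve proper) and 6 for retina input. Every library came from untreated mice at day 0 and was made from poly(A) RNA by the ultra-low input Smart-Seq HT method. Genotype, age, the tag that was precipitated and the promoter that drove it are not given in the sources used here. Nor do the labels say whether the libraries are separate animals, so each p-value measures the spread between libraries.

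GABA is made from glutamate by the glutamate decarboxylases that Gad1 and Gad2 encode, and in the retina this is a trait of amacrine and horizontal neurons. Sodium-coupled transporters of the Slc6 family clear it from the extracellular space into neurons and glia. Inside cells GABA transaminase (Abat) and succinic semialdehyde dehydrogenase (Aldh5a1) pass its carbon to the citric acid cycle, and monoamine oxidase B (Maob) serves a second route by which astrocytes can make GABA from putrescine.

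The 3 transporter genes lie on chromosome 6 of mm10, all on the plus strand. Slc6a11 (ENSMUSG00000030307, 114131241 to 114249952) stands apart from the other 2. Slc6a13 (ENSMUSG00000030108, 121300227 to 121337733) and Slc6a12 (ENSMUSG00000030109, 121343076 to 121365775) are neighbours, 5342 bases apart. The bases before the first RefSeq start of these 3 genes are shown because Slc6a11 and Slc6a13 were called in opposite directions between retina and optic nerve, and Slc6a12 is the neighbour of Slc6a13. Sequences are from RefSeq on GRCm38.p6 (the mm10 assembly), plus strand, with matches to the GC box GGGCGG on either strand in capitals. They cover chr6:114130991-114131240 for Slc6a11, chr6:121300038-121300226 for Slc6a13, whose stretch ends where the GENCODE gene begins, and chr6:121342324-121342573 for Slc6a12.
Slc6a11: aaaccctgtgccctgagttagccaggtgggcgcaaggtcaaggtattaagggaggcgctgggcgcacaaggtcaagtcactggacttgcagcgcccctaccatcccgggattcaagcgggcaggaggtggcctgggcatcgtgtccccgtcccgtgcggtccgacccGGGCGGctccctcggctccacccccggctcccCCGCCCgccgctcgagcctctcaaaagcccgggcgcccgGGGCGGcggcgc
Slc6a13: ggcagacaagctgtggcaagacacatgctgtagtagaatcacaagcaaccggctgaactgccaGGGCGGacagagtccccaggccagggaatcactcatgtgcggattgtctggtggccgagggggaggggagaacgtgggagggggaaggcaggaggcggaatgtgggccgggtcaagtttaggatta
Slc6a12: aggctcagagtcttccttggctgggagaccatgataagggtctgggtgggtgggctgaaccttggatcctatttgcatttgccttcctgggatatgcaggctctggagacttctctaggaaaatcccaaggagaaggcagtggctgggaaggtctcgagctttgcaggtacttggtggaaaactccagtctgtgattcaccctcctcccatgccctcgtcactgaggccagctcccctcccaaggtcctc

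GC made up 71.2% of the 250 bases before Slc6a11, 60.8% of those before Slc6a13 and 55.6% of those before Slc6a12, against a median of 52.4% over 32817 promoters of that length. Slc6a11 held 3 GC boxes, Slc6a13 held 2 in its full 250 bases and Slc6a12 held 0, and 32.7% of all promoters held at least 1. Neither TATAAA, which 12.4% of all promoters hold on either strand, nor CCAAT, which 33.8% hold, was found in the 3. Promoter sequence was matched for 6 of the 8 genes. A match is a string of letters in this window and nothing more.

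Of the synthesis genes, Gad1 (ENSMUSG00000070880, 70553072 to 70602014) and Gad2 (ENSMUSG00000026787, 22622205 to 22693874) both lie on the plus strand of chromosome 2. Among the other enzymes, Abat (ENSMUSG00000057880) lies on the plus strand of chromosome 16 from 8513429 to 8621568, and Aldh5a1 (ENSMUSG00000035936) on the minus strand of chromosome 13 from 24907579 to 24937661. Maob (ENSMUSG00000040147) lies on the minus strand of chromosome X from 16709282 to 16817366. The sources used here do not state that reads were assigned by strand. Reads of Gad1 and its antisense neighbour Gad1os therefore cannot be told apart where their transcripts share sequence. The antisense pseudogene Gm8132 overlaps the span of Slc6a11, but Slc6a11 shares 0 of its 5019 31-base words with other genes on either strand. Gad1 shares 4.21% of its 31-base words with other genes, a Gad1 pseudogene among them. Aldh5a1 shares 15.4% of its 31-base words with 2 overlapping antisense transcripts, and its values are uncertain for that reason. Slc6a12 and Slc6a13 share 0.993% and 1.08% of theirs with each other.

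Total estimated counts per library were 14703195 to 24966236 (retina IP), 14812762 to 26407745 (ONH IP), 14051088 to 27431026 (ONP IP) and 11164619 to 18417001 (retina input). The labels put all retinal libraries in batch 2 and 12 optic nerve libraries in batch 1. Replicate 7 of each nerve region, which the text names a bridging library, is in batch 2 as well. The ONH bridging library stood apart. Its 5 rod photoreceptor markers summed to 39210 CPM (counts scaled to library size), against 35.5 to 649 CPM in the other 6 ONH libraries, and its 7 pigment epithelium markers to 3419 CPM, against 205 to 1080 CPM. Astrocyte markers (8 genes) summed to 1068 to 8611 CPM in retina IP and to 384 to 1599 CPM in retina input, so the ranges overlapped. They reached 5107 to 26914 CPM in ONH IP and 10208 to 33424 CPM in ONP IP. Oligodendrocyte markers (5 genes) summed to 11.8 to 108 CPM in retina IP, 25068 to 67128 CPM in ONH IP and 32250 to 112777 CPM in ONP IP. Their medians in the nerve, 30669 CPM in ONH IP and 82093 CPM in ONP IP, were above those of the astrocyte list, 15219 and 15807 CPM. Microglia markers (4 genes) summed to 16.4 to 83.7 CPM in retina IP, 87.2 to 767 CPM in ONH IP and 120 to 1293 CPM in ONP IP. Both lists thus differ between retina IP and each nerve region. Between ONH IP and ONP IP the ranges overlapped, and 0 of the 5 oligodendrocyte and 0 of the 4 microglia markers were called. The part of both lists in the results was not tested. The counts of 4 Y-linked genes summed to 702 to 2262 in each batch 1 library and to 0 or 1 in each batch 2 library. The labels do not give sex. A difference in sex between the batches could not be told apart from batch, and its part in the results was not tested. The region comparisons below are edgeR fits with a batch term, and that term rests on the bridging libraries. Within batch 2 each nerve region has 1 library, so log2 fold changes there are given as values with no test. Fits without both bridging libraries have no batch term, and their retina libraries are all in batch 2 and their nerve libraries in batch 1. Differences between retina and nerve cannot be told apart from batch in those fits.

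The first comparison set retina IP against retina input and asked which GABA genes go with the precipitated RNA. Slc6a11 and Maob had the largest differences, both higher in retina IP, but neither passed. Slc6a11 encodes GAT-3, the transporter known from astrocytes in the brain. It measured 123 to 787 CPM in retina IP (median 256), against 26.9 to 117 CPM in retina input (median 98.4). Every retina IP library was above every input library, with only 123 CPM in retina IP replicate 1 close to the highest input value. The log2 fold change was 2.34 (SE 0.536, adjusted p = 0.057 by edgeR's quasi-likelihood test with Benjamini-Hochberg adjustment, unadjusted p = 0.00059). In these bulk libraries more cells of a type and more RNA per cell cannot be told apart.

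Maob ranged from 13.7 to 66.2 CPM in retina IP (median 33.8) and from 4.35 to 20.6 CPM in retina input (median 12.6). Retina IP replicates 2, 3 and 4, at 45.9, 66.2 and 59.8 CPM, lay above all inputs, and the other 3 lay within or just above the input range. Its log2 fold change was 1.74 (SE 0.480, edgeR adjusted p = 0.0693).

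Over all 15181 genes tested, edgeR called 0% at an adjusted p under 0.05, and 0 of the 7 GABA genes that passed the low-count filter were called. At an unadjusted p under 0.05 the count was 2 higher and 0 lower, where 11.7% and 10.4% of all genes were. DESeq2 and a fit of all 26 libraries called both Slc6a11 (adjusted p = 0.00141 and 0.00271) and Maob (adjusted p = 0.011 and 0.00514). Without retina IP replicate 1 edgeR called Slc6a11 (2.53, adjusted p = 0.0333) and Maob (1.92, adjusted p = 0.0477), and without replicate 5 it called Slc6a11 (2.47, adjusted p = 0.0475). Slc6a11 was the only GABA gene whose groups did not overlap, which held with the higher values in retina IP for 1.65% of all genes.

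The other 5 tested genes showed no difference that passed. Abat had 373 to 782 CPM in retina IP (median 486), against 69.2 to 492 CPM in retina input (median 396). Input replicates 1 and 2, at 116 and 69.2 CPM, made up the low end, and without them the log2 fold change of Abat was 0.37 in place of 0.82 (SE 0.434, edgeR adjusted p = 0.287 with all libraries and 0.395 without). Those inputs also had the highest mitochondrial shares of counts, 8.16% and 15.2%, against 2.79% to 4.01% in the other inputs. Their part in the result was not tested.

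Gad1, the gene of GAD67, spanned 136 to 844 CPM in retina IP (median 459) and 161 to 785 CPM in retina input (median 549). Gad2, the gene of GAD65, spanned 19.0 to 146 CPM in retina IP (median 75.9) and 52.2 to 154 CPM in retina input (median 106). The groups overlapped through most of their ranges, with log2 fold changes of 0.03 (SE 0.445, edgeR adjusted p = 0.978) for Gad1 and -0.31 (SE 0.432, edgeR adjusted p = 0.748) for Gad2. The sign for Gad1 turned with other size factors (-0.05).

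Aldh5a1 spanned 5.93 to 25.0 CPM in retina IP (median 17.0) and 8.30 to 35.4 CPM in retina input (median 12.7), with no difference that passed (edgeR adjusted p = 0.999). Slc6a13, the gene of GAT-2, a transporter known in the brain from the leptomeninges, was low in both, at 0.747 to 3.07 CPM in retina IP and 0.985 to 12.9 CPM in retina input (log2 fold change -0.86, SE 0.616, edgeR adjusted p = 0.451, and 0.24 without input replicates 1 and 2). Slc6a12, the gene of the betaine and GABA transporter BGT-1, did not pass the low-count filter. It had 0 to 2.04 CPM in retina IP and 0 to 3.20 CPM in retina input, with 0 counts in 1 and 3 libraries.

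**Figure D1:**
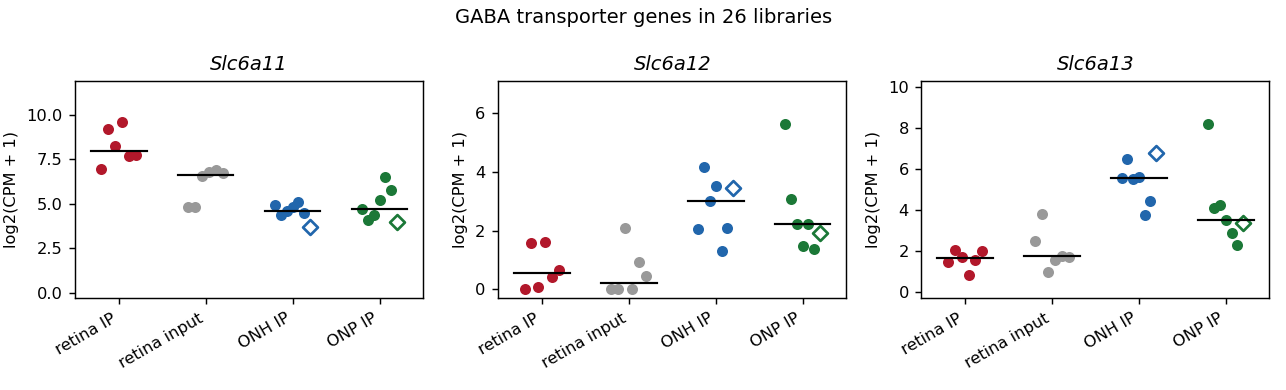
GABA transporter genes in each library as log2(CPM + 1), by group from retina IP to ONP IP; bars are group medians and open diamonds the bridging libraries. Slc6a11 lies highest in retina IP (median of 256 CPM), and Slc6a13 has its highest median in ONH IP (45.6 CPM) and its single highest value in ONP IP replicate 1 (296 CPM).

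The 6 retina IP libraries differed among themselves. The uptake gene Slc6a11 and the synthesis genes lay on opposite sides of a split read from these same libraries. Replicates 2, 3 and 4 had 600, 300 and 787 CPM of Slc6a11, and 321, 262 and 136 CPM of Gad1. Replicates 1, 5 and 6 had 123, 205 and 212 CPM of Slc6a11, and 844, 823 and 596 CPM of Gad1. Gad2 followed Gad1, at 48.6, 32.5 and 19.0 CPM in replicates 2, 3 and 4 and at 126, 146 and 103 CPM in replicates 1, 5 and 6. Maob and Abat followed Slc6a11, though Abat in replicate 3 (446 CPM) was below replicates 5 and 6 (500 and 471 CPM).

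Summed markers of several cell types moved with this split. Astrocyte markers summed to 5283 to 8611 CPM in replicates 2, 3 and 4 and to 1068 to 2074 CPM in replicates 1, 5 and 6. Müller glia markers (5 genes) summed to 5944 to 6646 CPM and to 2115 to 3999 CPM in the same order, and pericyte markers (4 genes) to 695 to 827 CPM and to 120 to 123 CPM. Horizontal cell markers (4 genes) ran the other way, at 58.5 to 106 CPM in replicates 2, 3 and 4 and 326 to 394 CPM in replicates 1, 5 and 6, as did amacrine markers (6 genes), at 92.1 to 108 CPM and 193 to 247 CPM. Among the inputs horizontal markers summed to 234 to 419 CPM and amacrine markers to 129 to 208 CPM. The pericyte genes did not all go together. Against ONH IP 1 of the 4 was called higher in retina IP and 2 lower, and Kcnj8 was at 0 in retina IP replicate 3. The part of these cell types in the GABA values was not tested.

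**Figure D2:**
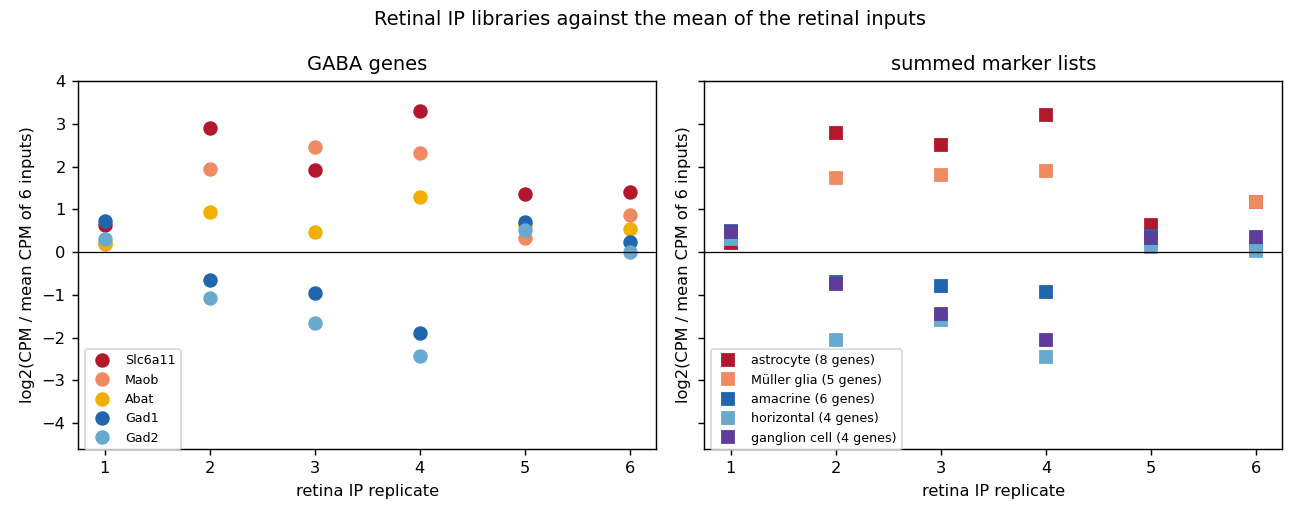
Each retina IP library as log2 of its CPM over the mean of the 6 retina inputs, for 5 GABA genes (left) and 5 summed marker lists (right). In replicates 2, 3 and 4 Slc6a11 and Maob lie above the inputs with the astrocyte and Müller glia lists, and Gad1 and Gad2 lie below with the horizontal, amacrine and ganglion cell lists.

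Gad1 supplied most of the glutamate decarboxylase counts in the retina. Its share of the summed Gad1 and Gad2 counts was 84.9% to 89.0% in the 6 retina IP libraries and 75.5% to 85.7% in the 6 inputs. Slc32a1, which encodes the vesicular GABA transporter of inhibitory neurons, ranged from 0.847 to 9.86 CPM in retina IP and from 3.02 to 14.9 CPM in retina input (log2 fold change -0.23, edgeR adjusted p = 0.873).

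The second comparison set retina IP against ONH IP. Slc6a11, Abat, Gad1, Gad2 and Maob were higher in retina IP and Slc6a13 lower, which made 5 and 1 of the 8 genes. Of all 16355 genes tested, 12.7% were called higher and 21.1% lower. The median log2 fold change was 2.81 over the 8 genes and -0.13 over all genes. The third comparison, against ONP IP, uses the same retina IP libraries and the same fit. There Slc6a11 and Abat were called higher and Slc6a13 lower, 2 and 1 of the 8, where 12.9% of all genes were called higher and 19.9% lower, and the medians were 2.10 and -0.10. Slc6a11, Abat, Gad1 and Gad2 lay higher in retina IP without overlap in both comparisons, and Slc6a13 lower. Among all genes, higher values without overlap were found for 8.77% against ONH IP and 11.8% against ONP IP, and lower ones for 14.1% and 16.5%.

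Slc6a11 at 123 to 787 CPM in retina IP stood against 11.9 to 33.5 CPM in ONH IP (median 23.4) and 14.6 to 91.0 CPM in ONP IP (median 25.2). No optic nerve library reached the lowest retina IP library, and ONP IP replicate 5, at 91.0 CPM, came nearest. The log2 fold change was 5.13 against ONH IP (SE 0.849, edgeR adjusted p = 0.000147) and 4.52 against ONP IP (SE 0.827, edgeR adjusted p = 0.000331). Within batch 2 it was 5.15 and 4.92. Without both bridging libraries, where batch and region cannot be told apart, it was 3.89 and 3.23 (edgeR adjusted p = 2.33e-06 and 1.19e-05). The call held without any 1 library, with a range of 4.81 to 5.35 against ONH IP and 4.20 to 4.73 against ONP IP.

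Abat, whose product removes the amino group of GABA, spanned 373 to 782 CPM in retina IP, 66.6 to 111 CPM in ONH IP (median 91.5) and 62.1 to 150 CPM in ONP IP (median 104). Every retina IP library was above every nerve library. Its log2 fold change was 3.19 against ONH IP (SE 0.310, edgeR adjusted p = 2.9e-07) and 2.93 against ONP IP (SE 0.309, edgeR adjusted p = 6.66e-07). Within batch 2 it was 3.18 and 3.33.

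Gad1 and Gad2 were close to 0 in most of the optic nerve. Gad1 had 0 to 2.03 CPM in the 6 batch 1 ONH libraries and 0 to 2.90 CPM in the 7 ONP libraries, against 136 to 844 CPM in retina IP. The exception was the ONH bridging library, with 87.3 CPM of Gad1 (1923 counts). Gad2 likewise had 0 to 0.574 CPM in batch 1 ONH IP, 0 to 2.40 CPM in ONP IP and 7.81 CPM in the ONH bridging library.

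Neuronal markers were also higher in that library. Horizontal markers summed to 60.5 CPM, against 0.422 to 2.25 CPM in the other ONH libraries, and amacrine markers to 69.2 CPM, against 12.5 to 55.3 CPM. The amacrine factor Tfap2b, picked after its values were seen, measured 34.3 CPM there, against 0 to 0.633 CPM. All 6 amacrine markers were detected there, while 2 to 5 were at 0 in each other ONH library. The amacrine sum includes the glycine transporter gene Slc6a9, which measured 12.5 to 54.7 CPM across ONH IP. In ONH IP replicate 2 the other 5 markers were at 0, yet the sum was 42.8 CPM. Slc6a9 had a mean of 85.3 CPM in ONP IP and 31.1 CPM in retina IP. In the nerve this sum therefore does not measure amacrine RNA alone. The part of these neurons in the Gad1 and Gad2 values was not tested.

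The fitted differences of Gad1 and Gad2 moved with the bridging libraries. Against ONH IP the log2 fold change was 3.48 for Gad1 (SE 1.33, edgeR adjusted p = 0.0493) and 4.26 for Gad2 (SE 1.45, edgeR adjusted p = 0.0286). Without the ONH bridging library it was 8.41 for Gad1 (edgeR adjusted p = 0.0102) and 8.37 for Gad2 (edgeR adjusted p = 0.0218). Without the ONP bridging library neither was called (2.52 with edgeR adjusted p = 0.265, and 3.35 with edgeR adjusted p = 0.201). The call for Gad1 was lost in 13 of the 20 fits that each left out 1 library. The other 12 were those without retina IP replicate 1, 2, 5 or 6, ONH IP replicate 1, 4, 5 or 6, or ONP IP replicate 2, 3, 5 or 6, with log2 fold changes of 3.27 to 3.58 and edgeR adjusted p from 0.0514 to 0.066.

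Against ONP IP the log2 fold changes were 3.76 for Gad1 (SE 1.54, edgeR adjusted p = 0.0677) and 4.11 for Gad2 (SE 1.68, edgeR adjusted p = 0.0668), and neither passed. Without the ONH bridging library both were called (7.98 with edgeR adjusted p = 0.00838, and 7.32 with edgeR adjusted p = 0.0239). Within batch 2 the values were 8.15 and 7.48. Without ONP IP replicate 1 both were called as well (4.42 with edgeR adjusted p = 0.0338, and 6.84 with edgeR adjusted p = 0.000204). Both were also called without retina IP replicate 4 (4.00 and 4.36, edgeR adjusted p = 0.0486 and 0.0466) or ONH IP replicate 3 (4.09 and 4.40, edgeR adjusted p = 0.0379 and 0.0481), and Gad1 without ONH IP replicate 2 (4.02, edgeR adjusted p = 0.0499). Without the ONP bridging library they were 2.10 and 2.30 (edgeR adjusted p = 0.448 and 0.494).

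**Figure D3:**
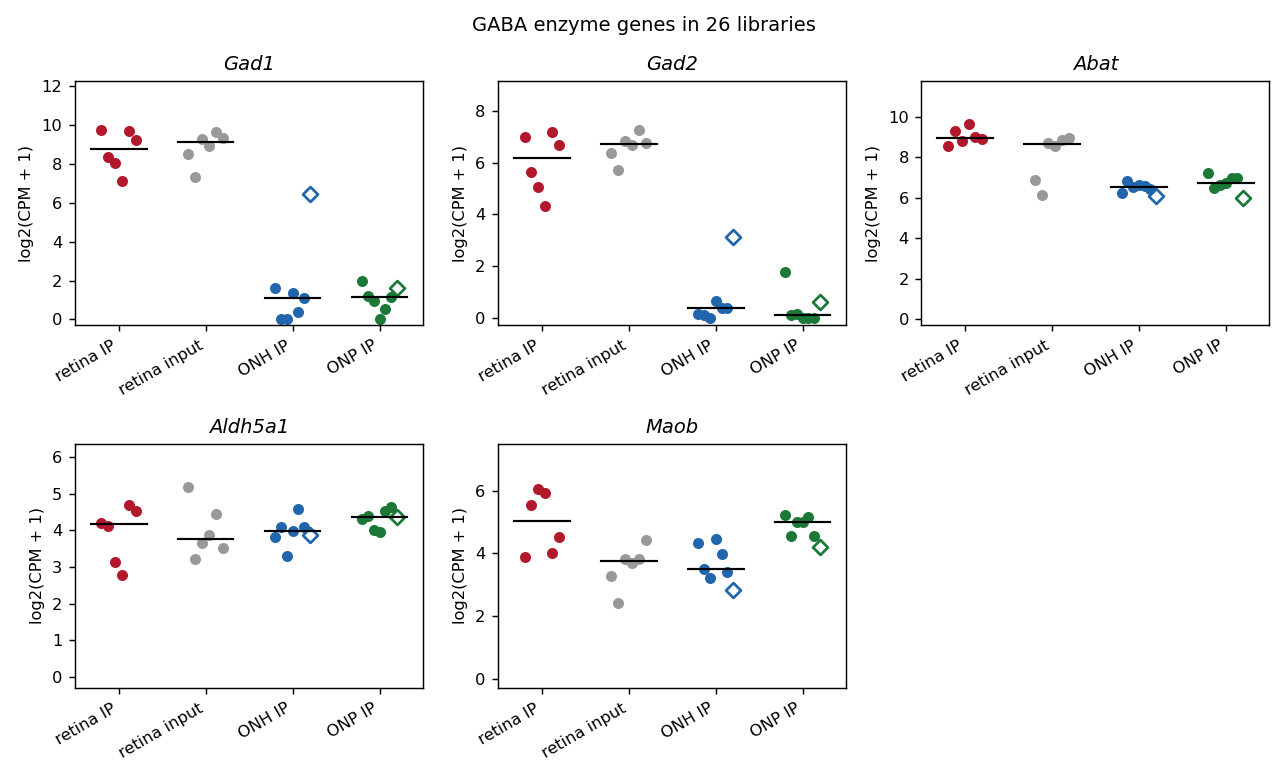
GABA enzyme genes in each library as log2(CPM + 1); bars are group medians and open diamonds the bridging libraries. Gad1 and Gad2 lie near 0 in the optic nerve apart from the ONH bridging library (87.3 and 7.81 CPM), Abat is lower in both nerve groups, and Aldh5a1 overlaps across all 4 groups.

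Maob at 13.7 to 66.2 CPM in retina IP (median 33.8) overlapped ONH IP, which had 6.13 to 21.0 CPM (median 10.3), and ONP IP, which had 17.4 to 36.6 CPM (median 31.1). The log2 fold change was 2.44 against ONH IP (SE 0.606, edgeR adjusted p = 0.00435) and 1.27 against ONP IP (SE 0.559, edgeR adjusted p = 0.087). The lowest ONH and ONP values, 6.13 and 17.4 CPM, were those of the bridging libraries. Without the ONH bridging library the ONH difference was 2.24 and no longer called (edgeR adjusted p = 0.0633), and within batch 2 it was 2.79. Without both bridging libraries, where batch and region cannot be told apart, it was 1.46 (edgeR adjusted p = 0.00222). Maob is X-linked, and the part of the difference in Y-linked counts between the batches was not tested. Against ONP IP Maob was called without retina IP replicate 1 or 5 (1.44 and 1.48, edgeR adjusted p = 0.0392 and 0.0414). It was not called in the other 18 of the 20 fits that each left out 1 library. The values of these fits ranged from 1.04 to 1.49, and the lowest value over all alternatives was 0.21.

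Slc6a13 was the 1 gene of the 8 that was called lower in retina IP. It measured 0.747 to 3.07 CPM there (median 2.10), 12.3 to 110 CPM in ONH IP (median 45.6) and 3.80 to 296 CPM in ONP IP (median 10.4). Every optic nerve library was above every retina IP library, ONP IP replicate 6 by the least. In log2 terms the fold change was -4.78 against ONH IP (SE 1.14, edgeR adjusted p = 0.00326) and -4.80 against ONP IP (SE 1.35, edgeR adjusted p = 0.0102).

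These differences depend on the ONH bridging library, which had 110 CPM of Slc6a13. Without it they were -1.66 and -2.09 and neither was called (edgeR adjusted p = 0.494 and 0.277), although the groups still did not overlap. Within batch 2 they were -5.51 against that library and -1.90 against the ONP library. Without both bridging libraries, where batch and region cannot be told apart, they were -4.29 and -4.72 (edgeR adjusted p = 0.0008 and 0.00039). Without ONP IP replicate 1 the ONP difference was -2.92 (edgeR adjusted p = 0.00215).

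Fibroblast and meningeal markers were also higher in the nerve, though within groups they did not always go with Slc6a13. The 8 markers summed to 4.26 to 20.8 CPM in retina IP, 445 to 1046 CPM in ONH IP, 145 to 1157 CPM in ONP IP and 0.952 to 12.8 CPM in retina input. Slc22a6 was at 0 in every retinal library, and 2 to 4 of the 8 were at 0 in each retina IP library and none in the nerve. The highest ONP sum was that of replicate 1, the library with 296 CPM of Slc6a13. The lowest ONH sum (445 CPM) was that of the bridging library, which had the most Slc6a13 in ONH IP, and the lowest input sum (0.952 CPM) was that of replicate 2, which had the most among the inputs. Pigment epithelium markers were highest in the ONH bridging library (3419 CPM), and were 17.5 to 61.7 CPM in retina IP and 39.5 to 139 CPM in ONP IP. Among the inputs, replicate 2 had the most Slc6a13 (12.9 CPM) and the highest pigment epithelium sum (301 CPM). The part of either cell type in the Slc6a13 values was not tested.

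**Figure D4:**
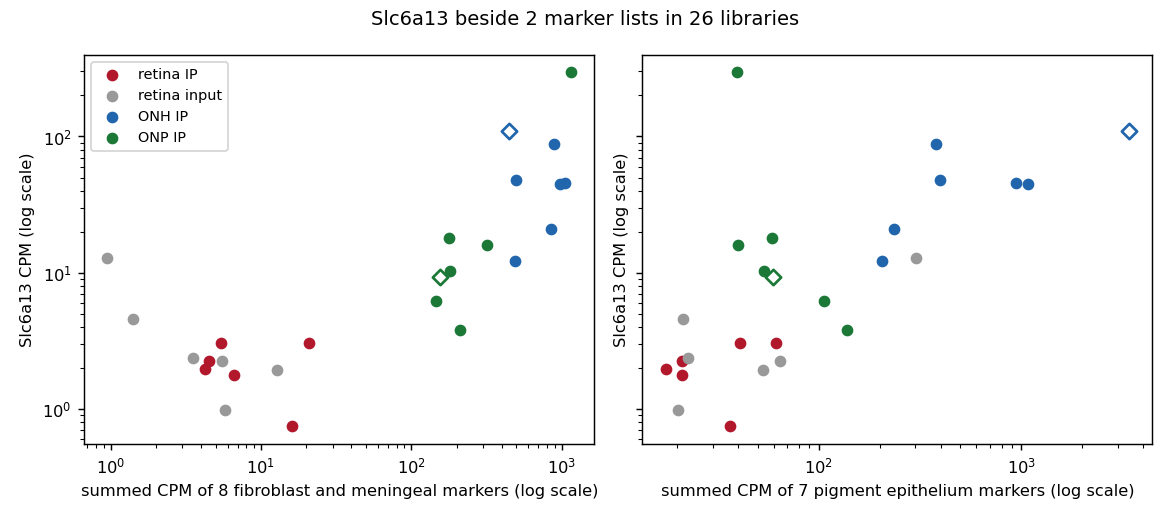
Slc6a13 CPM of each library against the summed CPM of 8 fibroblast and meningeal markers (left) and of 7 pigment epithelium markers (right), all on log scales; open diamonds are the bridging libraries. The nerve libraries lie to the right of the retinal ones on the left panel and mostly above them. Retina input replicate 2 (12.9 CPM) lies above several ONP libraries, and the next input (4.55 CPM) lies above the lowest ONP library (3.80 CPM). ONP IP replicate 1 (296 CPM) is at the far right there but among the low values on the right panel.

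Slc6a12 had 0 to 2.04 CPM in retina IP (median 0.464), 1.48 to 17.1 CPM in ONH IP (median 7.10) and 1.61 to 48.7 CPM in ONP IP (median 3.67). Retina IP replicates 2 and 4, at 1.99 and 2.04 CPM, reached the low end of the nerve range, so the groups overlapped. In log2 terms the fold change was -2.82 against ONH IP (SE 1.22, edgeR adjusted p = 0.0799) and -3.17 against ONP IP (SE 1.39, edgeR adjusted p = 0.0872), and neither passed. Without both bridging libraries, where batch and region cannot be told apart, both did (-3.02 and -3.68, edgeR adjusted p = 0.0154 and 0.00496). Without ONP IP replicate 1, which had the 48.7 CPM, the ONH difference was -3.21 and called (edgeR adjusted p = 0.0215), and the ONP difference was -2.11 (edgeR adjusted p = 0.157). Without the ONH bridging library the values were -0.999 and -1.66 (edgeR adjusted p = 0.738 and 0.472).

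Aldh5a1, which oxidises the aldehyde that Abat yields, spanned 5.93 to 25.0 CPM in retina IP, 8.85 to 23.2 CPM in ONH IP and 14.5 to 24.1 CPM in ONP IP. The ranges overlapped, and the log2 fold changes were 0.16 against ONH IP (SE 0.449, edgeR adjusted p = 0.812) and -0.19 against ONP IP (SE 0.438, edgeR adjusted p = 0.777). Abat was called in both comparisons and Aldh5a1 in neither, and the difference between the genes was not itself tested.

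**Figure D5:**
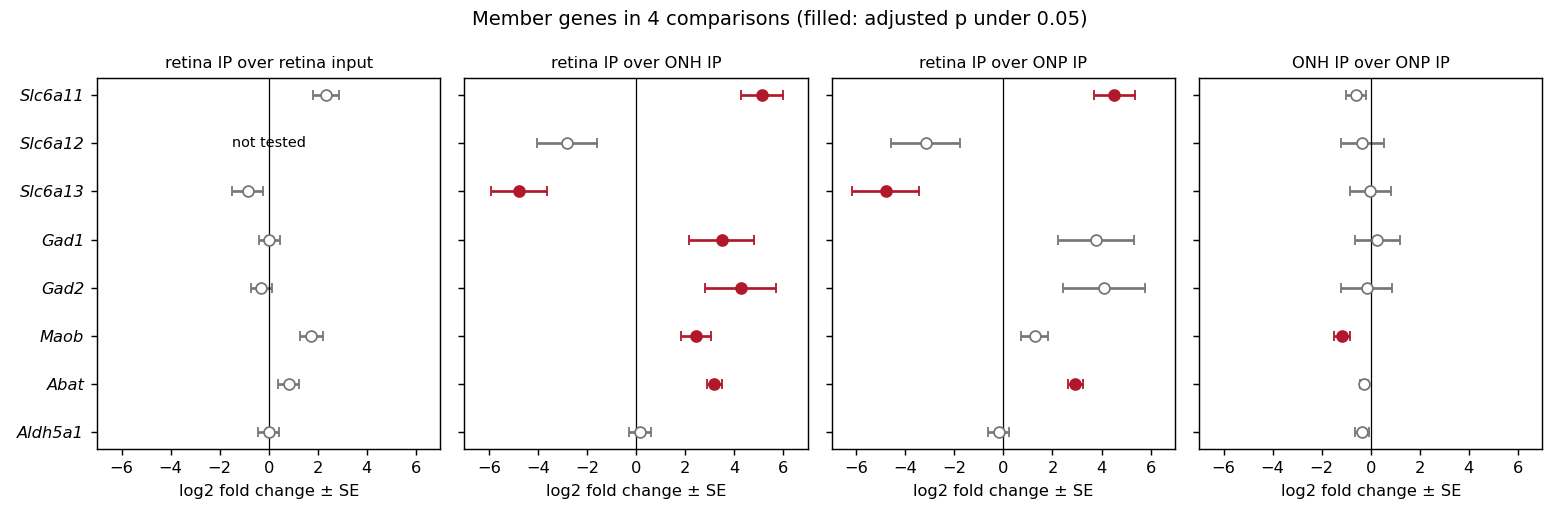
Log2 fold change ± SE of the 8 genes in the 4 comparisons, with filled points where the edgeR adjusted p is under 0.05. Retina IP over ONH IP has 6 filled points, over ONP IP 3, over retina input 0, and ONH IP over ONP IP has 1 (Maob, -1.17).

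Comparing ONH IP with ONP IP, edgeR called 0 of the 8 genes higher and 1, Maob, lower in ONH IP. Of all genes 4.43% were called higher and 3.04% lower. For 0 of the 8 did the groups not overlap, which held for 1.14% of all genes with ONH IP higher and 0.801% with ONH IP lower. Maob measured 6.13 to 21.0 CPM in ONH IP and 17.4 to 36.6 CPM in ONP IP, with 2 ONH libraries (19.3 and 21.0 CPM) inside the ONP range. In log2 terms the fold change was -1.17 (SE 0.331, edgeR adjusted p = 0.037). It was -1.12 within batch 1 (edgeR adjusted p = 0.0103). Leaving out 1 library moved it between -1.32 and -1.08, and the call was lost in 12 of the 20 fits (edgeR adjusted p from 0.0506 to 0.0966), those without ONH IP replicate 1, 2, 3, 5, 6 or 7 or ONP IP replicate 1, 2, 3, 4, 5 or 7.

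Slc6a13 and Slc6a12 had higher medians in ONH IP, at 45.6 and 7.10 CPM, against 10.4 and 3.67 CPM in ONP IP. The ranges overlapped, and ONP IP replicate 1 was the highest nerve library for both. The log2 fold change of Slc6a13 was -0.02 (SE 0.842, edgeR adjusted p = 0.993). Without that library it was 2.23 and called (edgeR adjusted p = 0.00883). For Slc6a12 it was -0.35 (SE 0.878, edgeR adjusted p = 0.855), and 1.10 without that library (edgeR adjusted p = 0.426). Slc6a11 had a log2 fold change of -0.60 (SE 0.398, edgeR adjusted p = 0.391), Abat of -0.26 (SE 0.162, edgeR adjusted p = 0.365) and Aldh5a1 of -0.35 (SE 0.277, edgeR adjusted p = 0.484). Gad1 (0.28, edgeR adjusted p = 0.893) and Gad2 (-0.15, edgeR adjusted p = 0.951) did not pass either, and their signs turned without single libraries.

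Levels were also compared between genes after division by exonic length, as CPM per kilobase. In retina IP the order of medians was Abat (62.7), Gad1 (60.0) and Slc6a11 (50.7), followed by Gad2 (12.9), Maob (12.1), Aldh5a1 (3.00), Slc6a13 (0.725) and Slc6a12 (0.152). The first 3 overlapped one another, as did Gad2 and Maob. In ONH IP Slc6a13 came first on this scale (15.7 CPM per kilobase, 4.24 to 37.9), followed by Abat (11.8), and Gad1 and Gad2 came last (0.145 and 0.0472). In ONP IP the order began with Abat (13.4) and Maob (11.2), and in retina input with Gad1 (71.9) and Abat (51.1).

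Among the 3 transporter genes, the make-up of the per-kilobase level differed by tissue. Slc6a11 made up 97.1% to 99.4% of their sum in the retina IP libraries (median 98.3%) and 55.1% to 97.0% in retina input (median 94.2%). In ONH IP the largest median share was that of Slc6a13 (69.0%, 37.3% to 87.1%), with Slc6a11 at 21.0% and Slc6a12 at 8.45%. In ONP IP the median shares were 46.0% for Slc6a13, 41.3% for Slc6a11 (4.07% to 85.3%) and 10.6% for Slc6a12. These shares are descriptions of levels and were not tested.

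The wider GABA pathway was read from a list of 29 further genes for transport, receptors, glutamine supply and the putrescine route, all of which passed the low-count filter. Against retina input 0 of the 29 were called in either direction (median log2 fold change 0.11, and 0.02 over all genes). Against ONH IP 6 were higher and 5 lower (median 0.19, and -0.13 over all genes), and against ONP IP 6 were higher and 6 lower (median -0.13, and -0.10 over all genes). Among all genes 12.7% were called higher and 21.1% lower against ONH IP, and 12.9% and 19.9% against ONP IP.

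Slc32a1 had 0 counts in all 7 ONP libraries and 692 counts in retina IP. Counts pooled over each group, with no batch term, differed 215-fold against a floor of 3 counts over the ONP group. The fit with the batch term gave a log2 fold change of 6.53 (SE 1.53, edgeR adjusted p = 0.00489). In ONH IP it was at 0 in 5 of 7 libraries, with 1.18 CPM in the bridging library, and its difference did not pass (edgeR adjusted p = 0.196). Without the ONP bridging library the ONP difference of Slc32a1 was 3.43 and not called (edgeR adjusted p = 0.307).

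The GABA-A receptor subunit gene Gabra2 was higher against both nerve regions (3.87 and 4.33, edgeR adjusted p = 0.0351 in each). Gabrg1, another subunit gene, was higher against ONH IP (5.18, edgeR adjusted p = 0.00665) and did not pass against ONP IP (2.76, edgeR adjusted p = 0.122). The channel gene Best1, whose product passes GABA in astrocytes, was higher against both (2.05 with edgeR adjusted p = 0.0203, and 2.58 with edgeR adjusted p = 0.00523), at 5.30 to 11.1 CPM in retina IP, 0.843 to 4.20 CPM in ONH IP and 0.674 to 2.78 CPM in ONP IP. Retina input had 3.02 to 16.2 CPM of Best1, and the difference from retina IP did not pass (0.33, edgeR adjusted p = 0.752). The calls for Gabra2, Gabrg1 against ONH IP and Best1 were each lost without the ONP bridging library (edgeR adjusted p from 0.0517 to 0.323). Best1 was also not called without the ONH bridging library (1.71 and 2.33, edgeR adjusted p = 0.18 and 0.0543). Gabra2 was also not called without retina IP replicate 5 or 6 in either comparison, nor against ONH IP without the ONH bridging library (6.18), nor against ONP IP without ONH IP replicate 4 (4.04), with edgeR adjusted p from 0.0501 to 0.0637.

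Among the lower genes was Aldh1a1, whose product can oxidise the aldehyde of the putrescine route to GABA. It had 4.13 to 36.2 CPM in retina IP, 635 to 1908 CPM in ONH IP and 832 to 1940 CPM in ONP IP. The log2 fold changes were -5.30 and -5.27 (SE 0.446 and 0.435, edgeR adjusted p = 3.97e-08 and 2.47e-08), and both calls held without any 1 library. The glutamine transporter gene Slc38a5 was lower (-4.14 and -4.61, edgeR adjusted p = 0.00175 and 0.000845), as was the creatine transporter gene Slc6a8 (-1.88 and -2.06, edgeR adjusted p = 4.02e-05 and 5.43e-06). The receptor gene Gabrr2 was called lower too (-1.89 and -2.06, edgeR adjusted p = 0.0167 and 0.0233), but without the ONH bridging library, which had 27.9 CPM of it, neither call held (-0.18 and -0.66, edgeR adjusted p = 0.901 and 0.537). Its ranges overlapped, with medians of 4.49 CPM in retina IP, 3.94 CPM in ONH IP and 6.67 CPM in ONP IP.

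Between ONH IP and ONP IP 1 of the 29 was called higher and 3 lower (median -0.17, and 0.02 over all genes). Among all genes 4.43% were called higher and 3.04% lower. The glycine transporter gene Slc6a9, which is also on the amacrine list, was lower (-1.52, edgeR adjusted p = 0.0155), as were Aldh9a1 (-0.60, edgeR adjusted p = 0.0204), which can act in the putrescine route, and Maoa (-0.53, edgeR adjusted p = 0.0104), the paralog of Maob. Aldh9a1 was not called without ONH IP replicate 1 or 3 (-0.56 and -0.59, edgeR adjusted p = 0.0558 and 0.0657). Slc32a1 did not pass (3.92, edgeR adjusted p = 0.0793). It was called without retina IP replicate 4 (edgeR adjusted p = 0.0404), and was 1.18 without the ONH bridging library (edgeR adjusted p = 0.538) and 1.199 without the ONP bridging library (edgeR adjusted p = 0.54). DESeq2 gave 1.55 and limma-voom 1.03 (adjusted p = 0.428 and 0.621).

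The genes with profiles most like each member were found by the root mean square difference of centred log2 CPM over the 26 libraries. Nearest to Slc6a11 were Ass1 (0.56), Cyb561 (0.74) and Smpdl3b (0.74), and nearest to Abat were Ass1 (0.40), Nr1d2 (0.40) and Pik3r3 (0.45), so Ass1, which encodes argininosuccinate synthase, led both. Slc6a13 was nearest to Foxc2 (0.84), Pdzk1ip1 (0.87) and Tbx18 (0.93), and Slc6a12 to Rbp4 (1.09), Thsd4 (1.14) and Wnt9a (1.16). Gad1 was nearest to Tmem130 (0.94), Nrsn2 (1.22) and Nhlh2 (1.24), and Gad2 to Nell1 (0.79), Cpne5 (0.81) and Rbfox3 (0.86), a neuronal splicing factor. Maob was nearest to Cdh11 (0.52), Aph1b (0.53) and Rhpn2 (0.54), and Aldh5a1 to Atp2a2 (0.35), Iqsec1 (0.38) and Dgkz (0.39). The libraries share groups and batches, so these distances describe the profiles only.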

How the data were processed

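RNA was measured in 26 libraries of mouse retina, optic nerve head and optic nerve proper. Per the submitters' processing notes, Salmon 1.6.0 and the mm10 build were used. The deposited values are estimated counts per gene, already whole numbers, so rounding changed nothing. Ensembl identifiers were given symbols from GENCODE M21 (54409 of 54532).

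Tests were edgeR 4.0.16 quasi-likelihood fits in R 4.3.3 with TMM scaling, after filterByExpr (minimum count 10, minimum total 15), with Benjamini-Hochberg adjustment over all genes and a threshold of 0.05. Retina IP and input were fitted on the 12 retinal libraries. Region comparisons used the 20 IP libraries with a batch term. CPM use TMM-scaled library sizes over 26 libraries (17173 genes kept). No libraries were duplicates (smallest chi-square per degree of freedom 17.2).

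All 8 genes are named, with Slc32a1 and, of the 29 pathway genes, up to 4 called in each direction by size of change. Some pathway genes are not reported here. For likeness, genes with a mean of at least 1 CPM were compared on log2 CPM with a prior count of 2, and the nearest 3 are named. The members and lists were chosen with earlier results of these data known. The fits were tested on simulated data. Alternatives were DESeq2 1.42.0, limma 3.58.1 (voom), other size factors, no filter, other sample sets, batch and block terms, and leaving out each library. Figures were drawn with matplotlib 3.10.9.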

Additional observations from a re-analysis of the deposited data

Results flagged for a closer look

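In 7 of 32 groups of libraries tested, the highest library stood far from the nearest other one. A chance rate of about 1 in 20 groups would hold only for normally distributed values and independent groups. CPM need not be normally distributed, each nerve group spans both batches, and some libraries stood out for more than 1 gene. The 7 of 32 therefore cannot be compared with that rate. Slc6a13 reached 296 CPM in ONP IP replicate 1, where the next library had 18.1 CPM, and Slc6a12 reached 48.7 CPM in the same library, where the next had 7.45 CPM. Gad2 was also highest there, at 2.40 CPM, with 0.504 CPM in the next ONP library. Gad1 reached 87.3 CPM in ONH IP replicate 7, a bridging library, with 2.03 CPM in the next, and Gad2 reached 7.81 CPM in it, with 0.574 CPM in the next. Among the inputs, Slc6a13 stood at 12.9 CPM in replicate 2, with 4.55 CPM in the next, and Slc6a12 at 3.20 CPM in replicate 3, with 0.906 CPM in the next.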

How the results depend on the processing

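Of the alternative values of single genes, 1258 kept their direction and their side of the threshold, 95 lost a call, 46 gained 1 and 49 turned sign. For retina IP against input the count of GABA genes called was 0, and 1 with no low-count filter, 2 with DESeq2, 2 with all 26 libraries in 1 fit and 0 to 2 without single libraries. All genes called were 0, and 193, 2160 and 2871 in the same order, 49 without inputs 1 and 2, and 0 to 381 without single libraries. DESeq2 moved the median of all genes to -0.13, against 0.02.

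Against ONH IP the 6 GABA genes called became 3 with only the groups compared, 2 within batch 2 (a lone nerve library, assumed to vary like the others) and 4 to 7 without single libraries. All genes called were 5532, and 3596 in 1 fit of all libraries, 8465 with no batch term, 9454 with the replicate block, 2069 with only the groups compared, 9420 without both bridging libraries, 818 within batch 2 and 2984 to 6027 without single libraries. Against ONP IP the 3 GABA genes called became 6 with limma-voom, no batch term, the replicate block or without both bridging libraries, and 3 to 5 without single libraries. All genes called were 5371, and 8851 with no batch term, 9699 with the block, 9444 without both bridging libraries, 1690 within batch 2 and 2155 to 5741 without single libraries. For ONH IP against ONP IP the 1 call became 0 with no filter, all libraries in 1 fit, no batch term or without both bridging libraries, and 0 to 1 without single libraries. All genes called were 1223, and 2032 with DESeq2, 511 in 1 fit, 2294 with only the groups compared, 2445 within batch 1, 3806 within batch 1 with the block and 601 to 1566 without single libraries. Fits of retina against nerve with no batch term, with the replicate block or without both bridging libraries do not adjust for batch. The causes were not tested.

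Signs turned for retina IP against input in Gad1 (-0.0532 with other size factors, -0.0405 with DESeq2, -0.0568 with limma-voom, -0.0316 in 1 fit, -0.0456 with the block, -0.34 without inputs 1 and 2, and -0.20 to 0.22 without single libraries). They also turned in Aldh5a1 (0.0534 with no filter, 0.0116 with the block, 0.19 without inputs 1 and 2, and -0.20 to 0.37 without single libraries), Slc6a13 (0.24 without those inputs) and Slc32a1 (0.22 without them, and -0.45 to 0.16 without single libraries). Aldh5a1 turned against ONH IP with the block (-0.006) and against ONP IP without single libraries (-0.33 to 0.0189). Gabrr2 turned against ONH IP without both bridging libraries (0.0521).

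Between ONH IP and ONP IP, Slc6a12 turned with limma-voom (0.28), the block (0.18) and within batch 1 with the block (0.26), and ranged from -0.74 to 1.10 without single libraries. Slc6a13 turned with limma-voom (1.44), no batch term (0.0509), the block (1.44) and within batch 1 with the block (1.28), and ranged from -0.43 to 2.23. Gad2 turned with limma-voom (1.76), no batch term (1.53) and the block (0.91), and ranged from -1.05 to 3.26. Gad1 turned without both bridging libraries (-0.43), within batch 1 (-0.44) and there with the block (-0.93), and ranged from -0.43 to 0.97.

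Same-numbered libraries did not all deviate together, with correlations of -0.0975 to 0.231 in the retina and 0.0619 to 0.410 in batch 1 of the nerve, and 4 of 6 correlated best with their own number in each. As not every correlation was over 0.1, the numbers were not taken as pairs, and whether they pair the libraries is uncertain. Intervals for low genes are limited by depth, with 77 counts of Slc6a12 over all 6 inputs.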
